A study of Mus musculus with 20 samples.

Results

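Bone marrow-derived macrophages (BMDM) of 5 mice received for 48 h either a lipoparticle alone (LP) or the same carrier with PIC on it (LP PIC), and their polyadenylated RNA was sequenced. The comparison takes the 10 libraries with these labels, 5 LP and 5 LP PIC, out of 20 in the series. The mouse number at the end of each title matches them, but the test behind the calls is not paired: it fits condition means over all 20 libraries, and mouse enters as a block only as an alternative. LP is read as the lipoparticle named in the title of the series, and the code PIC is used as it stands, since the labels do not spell it out. All cells, LP included, grew in DMEM with Glutamax, 20% serum and 30% medium conditioned by L929 cells, a fibroblast line that secretes CSF-1, the growth factor on which macrophages in culture depend. No LP library is of untreated cells, so that any effect of the carrier is shared by both conditions. The labels describe the mice only by an ID. Strain, sex, age and the amount of PIC are not stated there. The p-values of this test rest on the spread between libraries of the same condition, pooled over all 20, and treat libraries of a mouse as independent. They do not measure the spread of the within-mouse differences.

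Macrophages detect nucleic acids of microbes and damaged cells through Toll-like receptors in endosomes and through helicase-type sensors in the cytosol. These sensors switch on type I interferon genes through the factors IRF3 and IRF7, and inflammatory genes through NF-kB. Secreted interferon then acts back on the cells through the IFNAR receptor, the kinases JAK1 and TYK2 and STAT factors and IRF9, which together bind an element called ISRE in front of many antiviral genes. Macrophages held in CSF-1 also divide, and activation by microbial ligands is known to take such cells out of the cycle.

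Total gene counts, with M the prefix mega, were 22.4 to 23.8 M in 4 LP libraries and 9.74 M in LP of mouse 2, and 22.7 to 23.6 M in 4 LP PIC libraries and 17.4 M in LP PIC of mouse 5. Reads shared by more than 1 gene made up 1.14 to 1.34% of reads in LP and 1.66 to 1.90% in LP PIC, and the part of this difference in single genes was not tested. Levels of single genes are in CPM (counts per M gene counts) after scaling of library sizes. Sums of markers use plain library totals instead. The 10 macrophage markers summed to 12031 to 19496 CPM in LP and 14240 to 20508 CPM in LP PIC. Defining markers of T cells (Cd3d, Cd3e, Cd3g), NK cells (Ncr1, Prf1), B cells (Pax5) and red cells (Hba-a1) were at 0 in all 10 libraries, and the 9 neutrophil markers in the tables summed to 1.43 to 5.76 CPM. Other marker lists were not at 0. The 8 T cell markers summed to 64.1 to 116 CPM in LP and 26.1 to 68.0 CPM in LP PIC, with Cd28 lower (84.8 to 46.4 CPM) and Lck (0.712 to 1.81 CPM) and Cd4 (0.435 to 1.18 CPM) higher. The 7 B cell markers summed to 7.63 to 14.4 and 7.97 to 18.5 CPM, with Cd79b lower (0.321 to 0.037 CPM), the 9 fibroblast markers to 29.8 to 112 and 36.5 to 102 CPM, with Dcn higher (1.26 to 14 CPM), and the 6 endothelial markers to 227 to 274 and 162 to 199 CPM, with Vwf lower (199 to 108 CPM) and Kdr higher (34.6 to 68.9 CPM). The 6 plasmacytoid dendritic cell markers went from 162 to 369 CPM in LP to 668 to 1241 CPM in LP PIC, with Bst2, which interferon also induces, higher (182 to 782 CPM), Ccr9 higher (0.0359 to 0.152 CPM) and Tcf4 lower (50.5 to 31.8 CPM), while Siglech averaged 0.00829 and 0 CPM. The part of such cells in the results was not tested. In RNA of whole cultures, fewer cells of a kind and less RNA per cell cannot be told apart. The first principal component of the 10 libraries held 78.0% of the variance over the 1000 most variable genes and separated LP from LP PIC, and the second, with 11.1%, separated mice 1 and 2 from mice 3 to 5. The deposited counts of Xist were 285 to 482 CPM in mice 1 and 2 and at most 0.178 CPM in mice 3 to 5, where Y-linked Ddx3y ran from 27.5 to 49.8 CPM against 0 in mice 1 and 2.

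PIC on the lipoparticle moved a large part of the transcriptome in both directions. Of 12132 genes tested with edgeR's quasi-likelihood test, 5515 (45.5%) passed a Benjamini-Hochberg adjusted p under 0.05 and are called here: 2758 were higher (22.7%) and 2757 lower (22.7%) in LP PIC. Counts of list members called between LP and LP PIC, given below, stand beside this 22.7% in each direction. Most changes were small, with a median size of 0.51 on the log2 scale among the higher and 0.60 among the lower genes. Large changes, of 1 or more in log2 units, were reached by 752 higher genes (6.2%) and 832 lower genes (6.86%), and 102 higher but 21 lower genes passed 4. Of the 752 and 832, 726 and 804 had the same direction in 5 of 5 mice. The 752 genes took 2.73 to 4.38% of CPM in LP libraries and 9.33 to 14.6% in LP PIC, and the 832 genes 3.60 to 5.46% in LP and 1.15 to 1.72% in LP PIC.

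**Figure D1:**
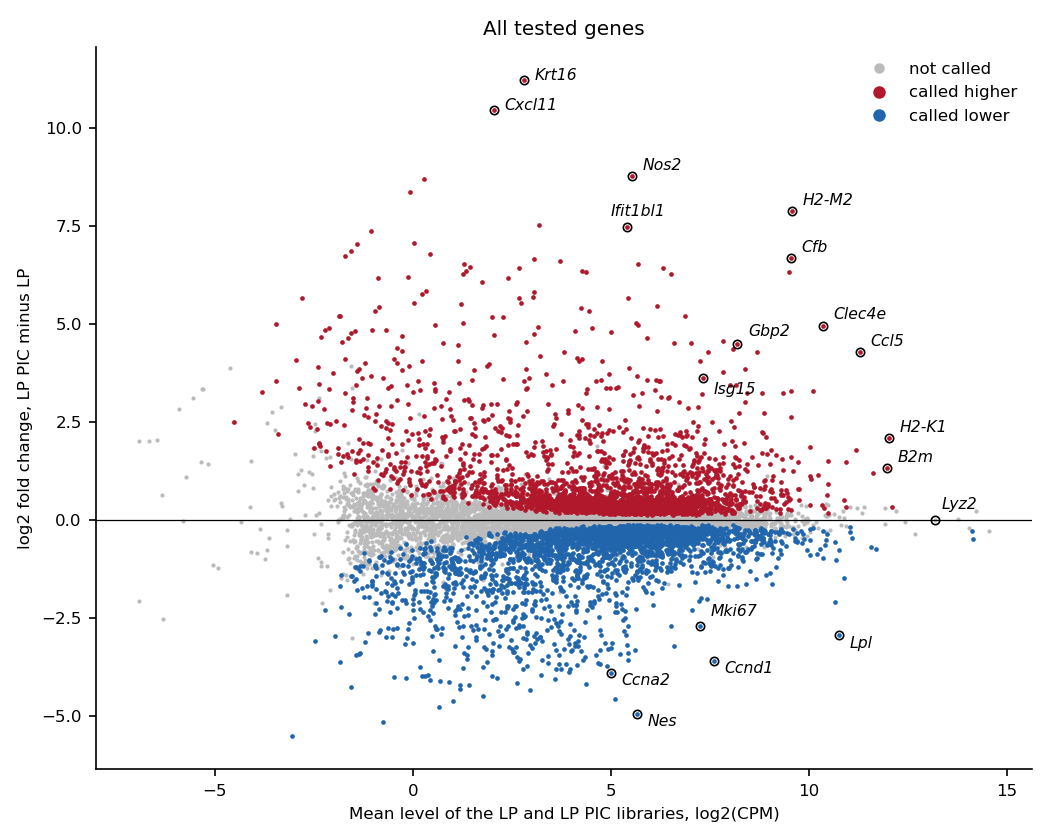
Each point is a tested gene, with its mean level in log2(CPM) on the x axis and the fitted log2 fold change of LP PIC minus LP on the y axis, and ringed genes are named. Rises reach beyond 4 for 102 genes and falls for 21, while H2-K1 and B2m changed among the most abundant transcripts and Lyz2 lies at 0.

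Among the strongest rises, Krt16 and Cxcl11 had no count in LP. Krt16, a keratin best known from stressed skin, was at 0 in 5 LP libraries and at 13, 9.25, 11.3, 32.7 and 3.93 CPM in LP PIC, at least 496-fold above a floor of 3 counts over the group. Of the other epithelial markers, Krt8, Krt5 and Krt14 were at 0 in all 10 libraries, Epcam and Krt18 averaged 0.0175 CPM in LP and 0 in LP PIC, and Cdh1 fell by 3.12 (0.778 to 0.0885 CPM, adjusted p = 0.000345). Cxcl11, a chemokine for activated T cells, was likewise at 0 in LP and at 11.7, 7.77, 2.2, 18.4 and 1.08 CPM in LP PIC, at least 295-fold above that floor. Nos2, the inducible nitric oxide synthase, measured 0.16, 0.192, 0.438, 0.249 and 0 CPM in LP and 133, 101, 45.1, 165 and 20.9 CPM in LP PIC, a log2 difference of 8.77 ± 0.89 (SE, adjusted p = 3.06e-07). H2-M2 belongs to the non-classical class I genes of the MHC and measured 10.2, 5.75, 8.94, 4.56 and 2.77 CPM in LP and 2188, 2055, 964, 1543 and 807 CPM in LP PIC, a difference of 7.87 ± 0.55 (SE, adjusted p = 6.76e-09). Rasgrp1 (7.51 ± 0.69), an activator of Ras, complement factor Cfb (6.67 ± 0.46), the formyl peptide receptor Fpr2 (6.66 ± 0.68) and the protease inhibitor Serpinb2 (6.60 ± 1.67) followed, the last with an adjusted p of 0.374 by limma-voom. The smallest p-values belonged to other genes: the lectin-like receptor Cd302 measured 47.3, 42.7, 48.1, 45.6 and 46 CPM in LP and 141, 142, 135, 148 and 141 CPM in LP PIC, with a difference of 1.62 ± 0.07 (SE, adjusted p = 3.14e-11). Slc31a2, a copper transporter, rose by 2.27 ± 0.12, the proteasome chaperone Psmd10 by 1.76 ± 0.10 and Ralgds, an exchange factor for Ral, by 2.27 ± 0.14.

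The strongest falls combined genes of cell division with genes of no common list. Nes, which codes for the intermediate filament nestin, measured 131, 97, 83.7, 88.6 and 89 CPM in LP and 1.17, 3.08, 6.6, 1.33 and 3.76 CPM in LP PIC, a log2 difference of -4.94 ± 0.44 (SE, adjusted p = 6.24e-08). Nptx1, a secreted pentraxin (-4.58), the calcium pump Atp2b4 (-4.49), the RNA-binding Nanos1 (-4.34) and the transcription factor Tox2 (-4.16) fell with it. Depdc1b, Ccnb2, Cdkn3, Fam64a and Ankle1, which act in or are known from dividing cells, fell by between 3.99 and 4.22. In each of these 10 genes every LP library lay above every LP PIC library.

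Of 21 interferon genes in the tables, Ifnb1 alone passed the filter on low counts, with 0, 0, 0, 0.0414 and 0 CPM in LP and 1.17, 1.56, 0.777, 1.64 and 0.228 CPM in LP PIC. These levels rest on 1 count over the LP libraries and 125 over the LP PIC libraries. After division by library totals the ratio was 116 (95% counting interval 20.5 to 4621). Ifnb1 stood above its LP level in 5 of 5 mice (adjusted p = 0.000142), and was not tested when the 10 libraries were fitted alone or under a filter of 5 CPM.

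Receptor and signalling genes of the interferon pathway were present in LP and rose moderately. Among 15 tested receptors, JAK kinases and STAT factors, 10 rose and 2 fell, with a median of 0.30. Without mouse 1 the number that rose was 5, and without mouse 3 the number that fell was 1. The receptor chain Ifnar2 measured 127, 135, 147, 128 and 121 CPM in LP and 190.3, 189, 173, 207 and 188 CPM in LP PIC, a difference of 0.52 ± 0.09 (SE, adjusted p = 0.00012), while Ifnar1 was at 0.19 ± 0.10 and did not pass (adjusted p = 0.123). Jak2, a kinase of the interferon gamma receptor, rose by 1.93 ± 0.27. It measured 34.3, 36, 37.5, 31.8 and 37.8 CPM in LP and 171, 168, 87.7, 173 and 75 CPM in LP PIC, lowest with PIC in mice 3 and 5. Stat2 measured 112, 83.9, 252, 179 and 94.3 CPM in LP and 459, 363, 399, 591 and 334 CPM in LP PIC, a difference of 1.57 ± 0.32 (SE, adjusted p = 0.000578). Its LP and LP PIC libraries did not overlap, although mouse 3 was highest in LP. Stat4 and the receptor chain Il10rb fell, by 1.14 and 0.25, and Stat4 did not pass in mice 3 to 5 alone (adjusted p = 0.109).

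Interferon regulatory factors split into a few that rose strongly and others near 0. Irf7, which amplifies interferon production, measured 103, 75.8, 499.9, 296 and 70.7 CPM in LP and 1394, 1049, 1165, 1882 and 957 CPM in LP PIC, a difference of 2.62 ± 0.57 (SE, adjusted p = 0.000999). Its LP level varied between mice, from 70.7 to 499.9 CPM. Irf1 rose by 1.91 ± 0.27 and Irf9 by 0.63 ± 0.12, whereas Irf5 (-0.17), Irf8 (-0.20) and Irf4 (-0.16) did not pass. Of 8 tested factors 5 rose and none fell (1 fell without LP PIC of mouse 5). Irf3, the factor that sensors activate first, differed by 0.16 ± 0.06 (adjusted p = 0.0417), a call that was lost when any of mice 1, 2, 4 and 5 or LP of mouse 2 was left out (adjusted p of 0.0612 to 0.131). Several negative regulators of cytokine signals rose: Usp18, which removes ISG15 and blocks the receptor, measured 32, 27.6, 90.1, 63.5 and 20.9 CPM in LP and 255, 232, 186, 389 and 176 CPM in LP PIC, a difference of 2.40 ± 0.42 (SE, adjusted p = 0.000134). The STAT inhibitors Socs2 (3.33 ± 0.33), Cish (2.66 ± 0.25), Socs1 (2.15 ± 0.53) and Socs3 (1.69 ± 0.44) rose as well, while Socs6 fell by 0.86. Socs1 did not pass by limma-voom (adjusted p = 0.0713), nor Socs3 in mice 3 to 5 alone (0.0634). Of 17 such inhibitors 7 rose and 5 fell, 3 of the latter without mouse 3 or mouse 4.

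Of 19 RNA sensors and adaptors 12 rose and 2 fell (1 without any of mice 3, 4 and 5, without LP of mouse 2 or without LP PIC of mouse 5), and of 13 DNA sensors and adaptors 10 rose and none fell. The cytosolic helicases Ifih1, or MDA5, and Ddx58, or RIG-I, rose by 1.54 ± 0.24 and 1.56 ± 0.32, their relative Dhx58 by 1.79 ± 0.34, and the endosomal receptor for double-stranded RNA, Tlr3, by 1.13 ± 0.20. Ifih1 measured 49, 43.8, 78.2, 65.9 and 35.3 CPM in LP and 186, 168, 137, 192 and 110.0 CPM in LP PIC. The nucleic acid sensor Zbp1 rose by 3.22 ± 0.54, and the kinases Ikbke (1.26 ± 0.13) and Tbk1 (0.45 ± 0.06), which phosphorylate IRF3, rose less. Of the adaptors themselves, Mavs was at -0.06 ± 0.07 and Ticam1 at 0.17 ± 0.12, and neither passed (with mouse as a block, Ticam1 passed at 0.0496). Eif2ak2, the RNA-activated kinase PKR, differed by 0.42 ± 0.17 with an adjusted p of 0.0577, which became 0.00396 with mouse as a block and 0.0172 without mouse 3. Dhx9, an RNA helicase, fell by 0.36.

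In the DNA sensor group, a cluster of Ifi200-type genes on chromosome 1 rose. Ifi204, Mndal, Mnda, Ifi203, Ifi205 and the receptor gene Olfr433 are neighbours among the tested genes, between 173747293 and 174042936 (GRCm38). The first 5 rose by 1.42, 1.48, 2.15, 1.92 and 6.28. Ifi205 measured 2.59, 1.44, 3.51, 2.94 and 0.839 CPM in LP and 253, 213, 92.9, 288 and 57.4 CPM in LP PIC, a difference of 6.28 ± 0.55 (SE, adjusted p = 4.57e-08). Trex1, the exonuclease that clears cytosolic DNA, rose by 1.88 ± 0.31, and Tmem173, or STING, by 0.59 ± 0.20. Reads of near-identical copies can be split by the counting, so values of single members of this family, and of the Ifit, Oas1, Gbp, Tgtp, Slfn, H2-Q and Bcl2a1 genes below, are uncertain.

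Toll-like receptors changed unevenly. Tlr2, a receptor for bacterial lipopeptides, rose most: it measured 55.7, 44.3, 105, 89.9 and 98.1 CPM in LP and 600.0, 618, 400.3, 486 and 509 CPM in LP PIC, a difference of 2.73 ± 0.22 (SE, adjusted p = 1.33e-08). Tlr1 (0.96), Tlr7 (0.77) and Tlr6 (0.55) also rose, Tlr13 (-0.52) fell, and Tlr4 (0.22), Tlr8 (-0.38) and Tlr9 (0.12) did not pass. Among adaptors and kinases, the inhibitory Irak3 rose by 0.98 ± 0.14 and the essential Irak4 fell by 0.50, without overlap of the libraries for either gene.

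All 6 Ifit genes, whose proteins bind viral RNA, rose, with a median of 3.34. Of 9 tested genes in the oligoadenylate synthetase list 7 rose and none fell; of 8 Schlafen genes 7 rose and 1 fell; and of 29 other effectors 23 rose and none fell (1 fell with mouse as a block, without mouse 3 or without LP PIC of mouse 5). In the same order, 6, 7, 6 and 22 of these genes had no overlap between the 5 LP and 5 LP PIC libraries, against 34.2% of all tested genes. Isg15, a ubiquitin-like modifier, measured 15.8, 11.3, 50.7, 32.4 and 8.64 CPM in LP and 311, 228, 206, 571 and 164 CPM in LP PIC, a difference of 3.63 ± 0.56 (SE, adjusted p = 4.11e-05). Ifit1 measured 24.3, 16.2, 99.6, 63 and 11.8 CPM in LP and 565, 483, 326, 756 and 215 CPM in LP PIC, a difference of 3.44 ± 0.59 (SE, adjusted p = 0.000116). Both were lowest in mouse 5 and highest in mouse 3 with LP, and highest in mouse 4 with LP PIC.

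The sizes differed within families. Ifit1bl1 rose by 7.47 ± 0.96, from at most 1.05 CPM in LP to between 8.44 and 175 CPM, whereas Ifit2 and Ifit3 rose by 3.23 and 3.22. Oasl1, which dampens translation of Irf7, rose by 4.06 ± 0.54, Oas1a by 1.43 ± 0.24 and Oas3 by 1.28 ± 0.34. Slfn1 (5.66 ± 0.60), Slfn4 (4.50 ± 0.60) and Slfn2 (1.56 ± 0.15) rose, and Slfn9 fell by 1.02. The membrane proteins that hold back viruses went different ways: Bst2, or tetherin, rose by 2.11 and Ifitm3 by 1.60, while Ifitm2 was at 0.00. The GTPases Mx1 and Mx2 rose by 2.90 and 2.09, and Rsad2, or viperin, by 3.43. The exonuclease Isg20 rose by 3.54 ± 0.50 and the nuclear body gene Pml by 1.00 ± 0.13.

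Enzymes that attach ISG15 or ADP-ribose followed. Of 7 genes of ISG15 conjugation 6 rose, among them the E1 enzyme Uba7 (1.24), the E2 enzyme Ube2l6 (1.71) and the ligase Herc6 (2.11 ± 0.30), and Herc3 fell by 0.74. Of 15 PARP genes 10 rose, among them Parp11 (1.51 ± 0.23), Parp14 (1.29) and Parp10 (1.23 ± 0.18), and Parp1, of DNA repair, fell by 0.33. Of 22 TRIM genes 10 rose and 6 fell, with a median of 0.09, against 22.7% of all tested genes in each direction. Trim30b (2.57 ± 0.42) and Trim30d (1.83 ± 0.30) were among the rises and Trim59 (-1.82) among the falls.

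**Figure D2:**
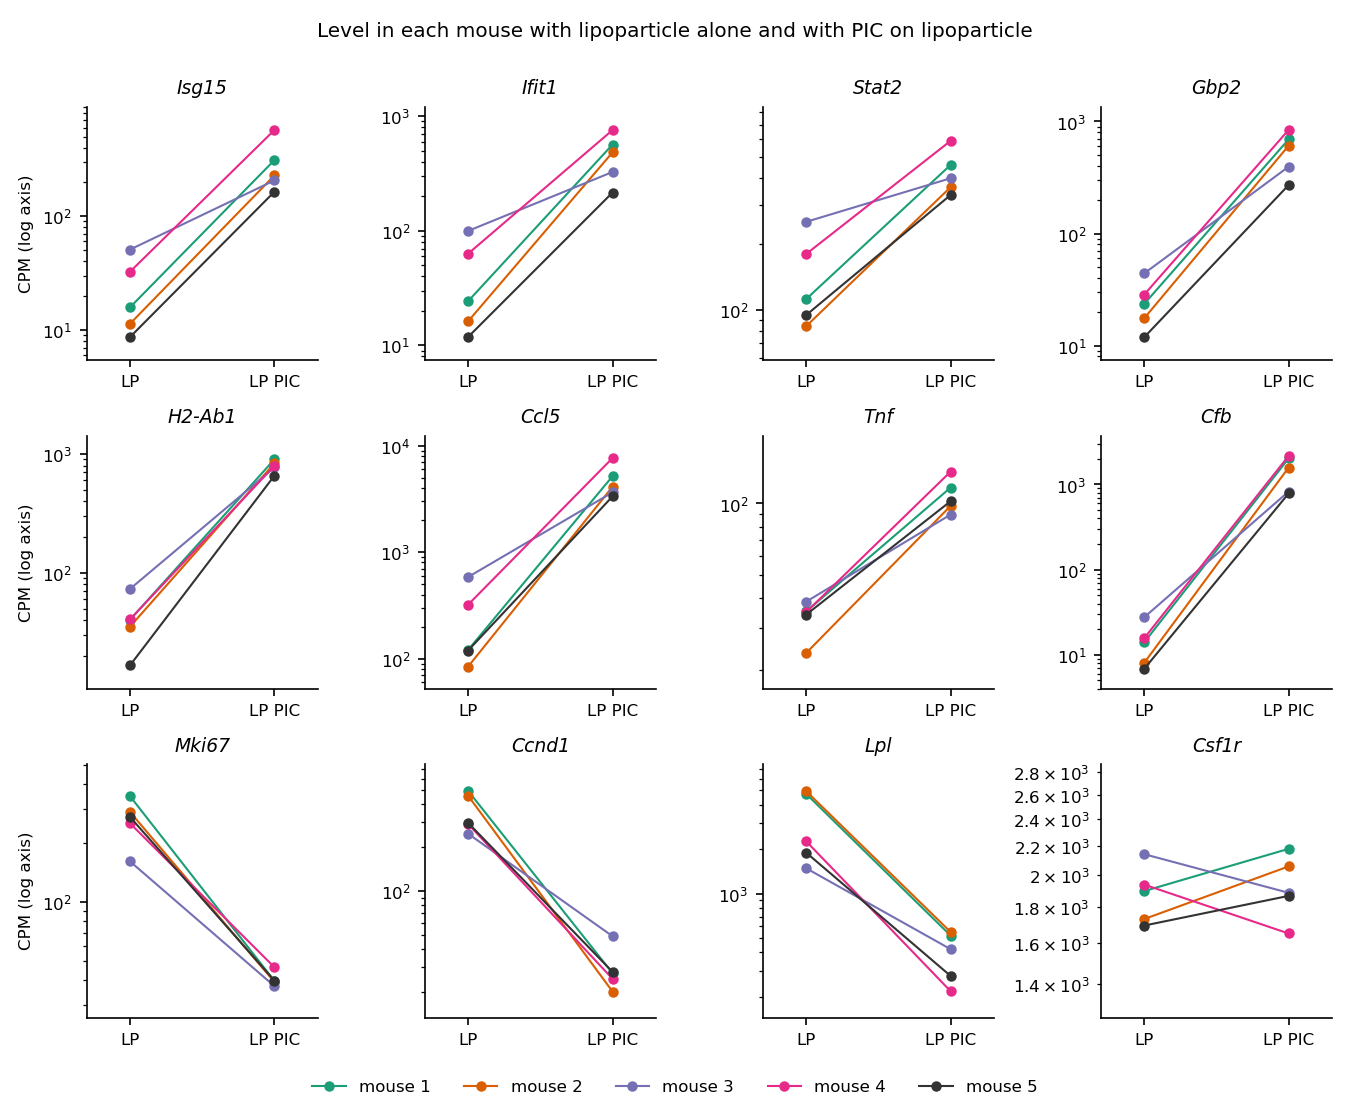
Lines join the LP and LP PIC libraries of each of 5 mice for 12 genes, with CPM on a logarithmic axis. In 11 panels LP and LP PIC do not overlap, with a flatter line of mouse 3 in Isg15, Ifit1 and Stat2, and in Csf1r the lines go both ways.

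Guanylate-binding proteins, GTPases that attack vacuoles holding microbes, had the highest median of the 54 lists with 6 or more tested members. All 9 tested genes rose, with a median of 4.48, and 8 of them without overlap of the libraries. Gbp2 measured 23.6, 17.5, 44.1, 28.5 and 11.9 CPM in LP and 693, 609, 395, 842 and 271 CPM in LP PIC, a difference of 4.48 ± 0.43 (SE, adjusted p = 1.4e-07). Gbp3 rose by 4.28 ± 0.43, Gbp5 by 5.46 ± 0.61 and Gbp6 by 4.51 ± 0.38, and Gbp8 and Gbp9 by 1.54 and 1.83. Of 8 related immunity-related GTPases 7 rose, among them Tgtp1 (6.53 ± 0.85), Iigp1 (4.82 ± 0.60), Igtp (1.90 ± 0.29) and Irgm1 (1.44), and Irgq was at 0.04. These genes lie in runs of neighbours among the tested genes. Gbp5, Gbp7, Gbp3 and Gbp2 rose by at least 1 in a run on chromosome 3. Gbp8, Gbp9, Gbp4, Gbp6 and Gbp11 did so on chromosome 5.

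Promoters of 4 of these genes are printed because they hold a match to the core of the ISRE, the element bound by STAT factors with IRF9. The 4 are the genes with the smallest p among those with a match in the interferon lists. Each is the RefSeq window on GRCm38.p6 from 250 bases before to 50 bases after the start of the gene, 5′ to 3′ on the strand of the gene, and capitals mark GAAA, any 2 bases and GAAA, or the reverse complement.
Ifi205 (chr1:174031706-174032005, minus strand): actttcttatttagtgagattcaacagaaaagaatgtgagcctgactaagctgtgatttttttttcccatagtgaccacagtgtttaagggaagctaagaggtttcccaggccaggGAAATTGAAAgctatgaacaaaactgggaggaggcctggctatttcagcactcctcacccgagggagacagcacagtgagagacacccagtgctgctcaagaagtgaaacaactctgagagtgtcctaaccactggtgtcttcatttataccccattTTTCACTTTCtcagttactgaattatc
Gbp2 (chr3:142620413-142620712, plus strand): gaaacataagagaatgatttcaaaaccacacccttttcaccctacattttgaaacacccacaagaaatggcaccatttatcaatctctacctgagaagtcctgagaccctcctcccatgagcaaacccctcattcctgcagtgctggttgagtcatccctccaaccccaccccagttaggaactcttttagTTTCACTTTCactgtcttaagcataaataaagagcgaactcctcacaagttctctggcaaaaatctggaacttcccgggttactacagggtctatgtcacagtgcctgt
Gbp3 (chr3:142559794-142560093, plus strand): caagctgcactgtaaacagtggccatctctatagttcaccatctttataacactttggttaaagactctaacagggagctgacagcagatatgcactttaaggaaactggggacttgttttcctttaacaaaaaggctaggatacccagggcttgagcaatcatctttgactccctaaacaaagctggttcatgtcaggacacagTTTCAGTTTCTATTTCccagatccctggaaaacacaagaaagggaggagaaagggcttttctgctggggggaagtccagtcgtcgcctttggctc
Gbp5 (chr3:142496684-142496983, plus strand): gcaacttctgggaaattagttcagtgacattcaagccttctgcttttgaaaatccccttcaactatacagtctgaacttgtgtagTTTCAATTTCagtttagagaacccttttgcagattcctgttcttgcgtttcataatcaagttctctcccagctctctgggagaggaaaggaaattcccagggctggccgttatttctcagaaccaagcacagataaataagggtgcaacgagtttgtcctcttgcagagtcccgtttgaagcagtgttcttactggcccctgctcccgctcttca
The match of Gbp2 begins 59 bases before the start and that of Gbp5 165 bases before it. Gbp3 holds 2 overlapping matches, which begin 45 and 39 bases before the start, and Ifi205 holds 1 that begins 134 bases before and 1 that begins 23 bases after it. A match to these letters is a description and no evidence of binding.

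MHC class I genes, which present peptides from inside the cell, rose. Of 13 tested class I genes 12 rose and none fell, with a median of 1.66. H2-K1, which presents peptides to CD8 T cells, had the largest gain in CPM of all genes: it measured 1256, 1279.7, 2328, 1739 and 1322 CPM in LP and 7386, 6715, 5816, 7724 and 5957 CPM in LP PIC, a difference of 2.08 ± 0.20 (SE, adjusted p = 7.61e-08). B2m, the shared light chain, rose by 1.31 ± 0.16, H2-D1 by 0.91 ± 0.14 and H2-Q5 by 3.35 ± 0.30. Of 19 genes for the immunoproteasome and peptide loading 16 rose, and none fell. The subunits that replace the standard catalytic ones, Psmb8 (1.59 ± 0.19), Psmb9 (1.49) and Psmb10 (2.05), rose more than those they replace, Psmb5 (0.51), Psmb6 (0.64) and Psmb7 (0.36); these differences between genes were not tested. The peptide transporter genes Tap1 (1.92) and Tap2 (1.32), the loading factor Tapbp (1.86 ± 0.22) and Nlrc5 (1.20 ± 0.15), the transactivator of class I genes, rose, while the general chaperones Canx (-0.12) and Pdia3 (-0.15) did not pass.

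Core MHC class II genes, which present ingested peptides to CD4 T cells, rose too. H2-Ab1 measured 40.2, 35.2, 73.1, 40.5 and 16.6 CPM in LP and 902, 835, 771, 797 and 658 CPM in LP PIC, a difference of 4.27 ± 0.41 (SE, adjusted p = 1.45e-07). H2-Aa (3.84), H2-Eb1 (4.56) and the invariant chain Cd74 (3.27) rose alongside, as did their transactivator Ciita, which measured 3.23, 2.11, 2.54, 1.7 and 0.713 CPM in LP and 36.5, 37.4, 36, 39.8 and 22.1 CPM in LP PIC. The peptide exchange gene H2-DMa rose by 2.13 ± 0.26, whereas Ctss, a protease that trims the invariant chain, was at 0.23 and did not pass. In all, 12 of 16 class II genes rose, and Rfxap fell by 0.23 (adjusted p = 0.0482), which did not pass without any of mice 1 to 4 or LP of mouse 2 (0.0547 to 0.288). Among 19 costimulatory and checkpoint genes 12 rose: Cd40 (3.37 ± 0.42) and Cd86 (2.29 ± 0.22) rose strongly and Cd80 (0.76 ± 0.20) less, and Cd274, which codes for the inhibitory ligand PD-L1, measured 63.7, 68.2, 104, 76.7 and 76.6 CPM in LP and 485, 569.8, 334, 542 and 319 CPM in LP PIC. Cd276, Havcr2 and Sirpa fell in the fit of all libraries, and no costimulatory gene was called lower without mouse 1 or without mouse 4 (1 gene without mouse 2 or mouse 3).

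Most of the cytokine genes that passed rose, many from levels near the floor. Of 22 tested cytokines 13 rose and 1, Il16, fell, by 1.65. Tnf measured 35.1, 23.5, 38.6, 34.9 and 34.1 CPM in LP and 117, 97.7, 89.8, 136 and 102 CPM in LP PIC, a difference of 1.70 ± 0.19 (SE, adjusted p = 7.82e-07). The interleukin 1 receptor antagonist Il1rn (135 to 528 CPM, 1.97 ± 0.57) stayed far above Il1b (0.44 to 5.2 CPM, 3.55 ± 1.09) and Il1a (0.536 to 17.3 CPM, 4.91 ± 0.87) in mean CPM, a scale that does not correct for gene length. The call of Il1b (adjusted p = 0.0122) was lost by limma-voom (0.435) and in mice 3 to 5 alone (0.197). Inhba, the subunit of activin A, rose by 5.33 ± 0.58, the B cell factor Tnfsf13b by 2.25 ± 0.34, Il15 by 1.50 ± 0.28 and Il27 by 2.81 ± 0.54. Il12b was at 0.0399, 0, 0.131, 0 and 0 CPM in LP and at 0.963, 0.904, 1.08, 2.66 and 0.513 CPM in LP PIC, a difference of 4.84 ± 1.36 (SE, adjusted p = 0.00721). The call was lost without mouse 4 (adjusted p = 0.0618), by limma-voom (0.0951), in mice 1 and 2 alone (0.205) and in mice 3 to 5 alone (0.0975). Il6 was at 0.796, 0.74, 0.647, 0.799 and 0.228 CPM in LP PIC, 3.93 ± 1.99 above LP, and did not pass (adjusted p = 0.117), but reached 0.0268 with mouse as a block and 0.0317 without mouse 5. Il10 differed by -0.77 ± 0.99 (adjusted p = 0.557).

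Of 23 tested chemokines 8 rose and 2, Ccl7 and Cx3cl1, fell. With mouse as a block 12 rose and 4 fell, and 1 fell without any of mice 1 to 4, LP of mouse 2 or LP PIC of mouse 5. Ccl5, a chemokine for several kinds of leukocyte, measured 121, 84.1, 584, 321 and 119 CPM in LP and 5163, 4107, 3643, 7647 and 3336 CPM in LP PIC, a difference of 4.28 ± 0.56 (SE, adjusted p = 6.38e-06). Cxcl10 measured 1.52, 1.34, 1.36, 0.995 and 0.419 CPM in LP and 120.0, 84.9, 64.3, 201 and 41 CPM in LP PIC, a difference of 6.52 ± 0.53 (SE, adjusted p = 2e-08). Cxcl16 (1.78 ± 0.18), Ccl22 (5.67 ± 0.74) and the neutrophil chemokines Cxcl3 (6.27) and Cxcl2 (2.19) rose, while Cxcl9, a close relative of Cxcl10, reached only 0.586, 0.617, 0.475, 0.799 and 0.114 CPM in LP PIC and did not pass (adjusted p = 0.141, 0.0267 with mouse as a block, 0.00383 without mouse 3). Ccl7, a chemokine for monocytes, fell by 1.48. Ccl2, its relative, measured 157, 119.6, 61.1, 83.8 and 61.8 CPM in LP and 60.2, 58.2, 44.4, 59.7 and 31 CPM in LP PIC, a difference of -0.93 ± 0.45 that did not pass (adjusted p = 0.102) but did with mouse as a block (0.00274). Among receptors, Ccr7 (5.84), which guides cells to lymph nodes, Ccrl2 (3.10 ± 0.33) and Fpr2 rose, and Cxcr3 (-2.55 ± 0.33), Cx3cr1 (-3.14) and C5ar1 (-1.24) fell.

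Of 27 NF-kB subunits, regulators and targets 18 rose and none fell, with a median of 0.87, and 19 had no overlap between the conditions. Relb, a subunit of the slower, non-canonical arm, measured 35.9, 35.9, 41.7, 41.5 and 37.7 CPM in LP and 133, 129.8, 117, 153 and 123 CPM in LP PIC, a difference of 1.77 ± 0.10 (SE, adjusted p = 6.27e-10). Nfkb2 rose by 1.50, the inhibitors Nfkbia (1.64), Nfkbie (2.14) and Tnfaip3 (1.90 ± 0.14) rose with it, and Rel (0.13), Ikbkb (0.20) and Chuk (0.20) did not pass. Sod2, the mitochondrial superoxide dismutase, measured 67.3, 61, 89.7, 73.1 and 82.3 CPM in LP and 663, 646, 459, 784 and 447 CPM in LP PIC, a difference of 3.00 ± 0.17 (SE, adjusted p = 6.27e-10). Of 23 AP-1 and immediate early genes 6 rose and 8 fell, against 22.7% of all tested genes in each direction. Batf2 (2.60 ± 0.33), Batf (1.72) and Maff (1.64 ± 0.24) were among the rises. Myc, Fosb (-2.26), Egr3 (-2.46) and Atf3 (-0.62 ± 0.09) were among the falls. Without mouse 1, mouse 4 or LP of mouse 2 the number that fell was 5.

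Irg1, or Acod1, makes itaconate from a citric acid cycle intermediate and measured 13.5, 7.86, 50.2, 28.4 and 27.8 CPM in LP and 596, 528, 423, 702 and 359 CPM in LP PIC, a difference of 4.34 ± 0.37 (SE, adjusted p = 3.97e-08). Of the 24 genes in its list, which also holds the citric acid cycle, 7 rose and 4 fell. The share of all tested genes was 22.7% in each direction. Without mouse 1, 2 or 4 or without LP of mouse 2 the number that fell was 2. Sdhd (0.45 ± 0.07) rose, Mdh1 (-0.47 ± 0.09) fell, and Cs (-0.06) and Sdha (-0.09) did not pass. Beside Nos2, its arginine transporter Slc7a2 (2.24), Gch1 (1.69 ± 0.13), which starts the synthesis of its cofactor, and Arg2 (3.93 ± 0.26) rose. Arg1 was at 1.2, 1.73, 0.0876, 0 and 0.168 CPM in LP and at 0.167, 0.0822, 0.0432, 0 and 0 CPM in LP PIC, a difference of -3.02 ± 2.26 that did not pass (adjusted p = 0.293) but did with mouse as a block (0.00609). Ptgs2 (4.10 ± 0.65) and Ptges (5.19 ± 0.57), which make prostaglandin E2, rose, while Hpgds (-0.84 ± 0.09), for prostaglandin D2, and the prostaglandin-degrading Hpgd (-3.75) fell. Ptges measured 5.39, 7.09, 6.49, 5.18 and 7.09 CPM in LP and 333, 340.4, 85.5, 267 and 114 CPM in LP PIC. Ido1, which degrades tryptophan, rested on 1 count over the LP libraries and 63 over LP PIC.

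Several complement components rose, and receptors for complement fragments fell. Cfb measured 14, 8.05, 27.6, 15.7 and 6.84 CPM in LP and 2026, 1581, 827, 2167 and 786 CPM in LP PIC, and C3, the central component, measured 216, 138, 362, 221 and 83.9 CPM in LP and 3046, 2309, 1537, 2239 and 882 CPM in LP PIC, a difference of 3.29 ± 0.37 (SE, adjusted p = 1.23e-06). C1s1 (3.29 ± 0.41), C1ra (2.03) and C2 (2.20) rose from low levels. C5ar1 (-1.24), C5ar2 (-1.48 ± 0.22) and C3ar1 (-0.68) fell, and the C1q chains C1qa (0.65), C1qb (-0.36) and C1qc (-0.40) did not pass. Of C-type lectins, Clec4e, or Mincle, gained most in CPM: it measured 57.8, 37.7, 141, 106 and 64 CPM in LP and 3041, 2897, 2122, 2909.8 and 1669.8 CPM in LP PIC, a difference of 4.95 ± 0.32 (SE, adjusted p = 3.37e-09). The cystine transporter gene Slc7a11 rose by 3.24 ± 0.31. Among iron genes, Hp (4.12 ± 0.56), whose product binds haemoglobin, and Lcn2 (3.24), whose product binds bacterial iron carriers, rose, while the transferrin gene Trf (-1.62 ± 0.11) and its receptor Tfrc (-1.36) fell.

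Of 22 inflammasome and lytic death genes 15 rose and 3 fell, and of 24 BCL2 family and apoptosis genes 12 rose and 6 fell (3 without mouse 3 or mouse 4). Mlkl, the executioner of necroptosis, rose by 1.73 ± 0.19, Gsdmd, that of pyroptosis, by 1.22 ± 0.15, and Casp4, which senses cytosolic lipopolysaccharide, by 1.60. Nlrp1b fell by 1.37. The death receptor Fas measured 3.59, 2.97, 3.86, 4.14 and 3.69 CPM in LP and 23, 21.7, 14.7, 28.1 and 12 CPM in LP PIC, a difference of 2.43 ± 0.20 (SE, adjusted p = 1.34e-08), and the survival genes Bcl2a1a (6.34 ± 0.38) and Bcl2a1d (3.88 ± 0.32) and the caspase 8 inhibitor Cflar (1.14) rose beside it. Bcl2l11 (-0.67) and Bik (-3.16 ± 0.42), which promote apoptosis, fell.

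**Figure D3:**
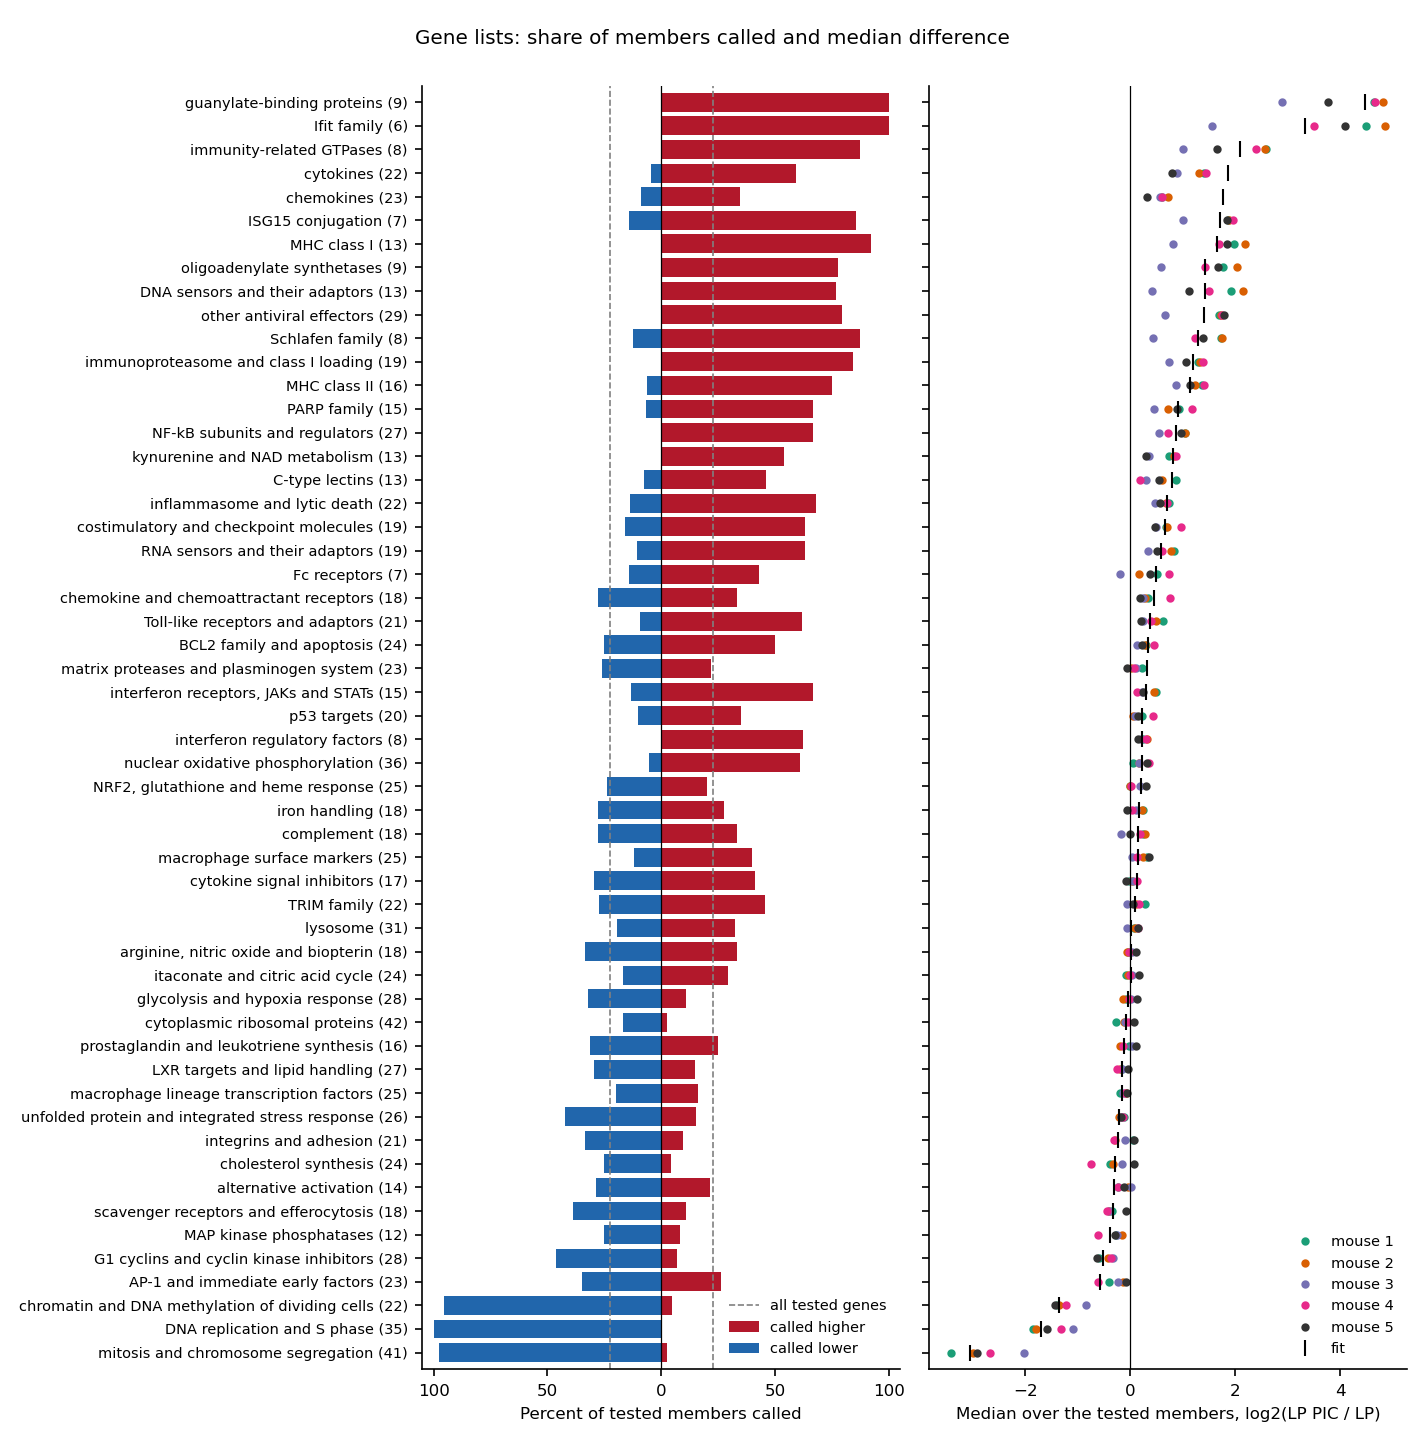
For 54 gene lists with 6 or more tested members (number in brackets), bars give the percent of members called higher (right) and lower (left), dashed lines mark the 22.7% of all tested genes in each direction, and points give the median log2 difference of the members in each mouse beside the fit. Guanylate-binding proteins (median 4.48) head the lists and mitosis genes (median -3.05) end them, and mouse 3 is nearest 0 for both.

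Cell division genes fell almost without exception. All 35 DNA replication genes fell, with a median of -1.69, and 40 of 41 mitosis genes fell, with a median of -3.05. The libraries did not overlap for 34 and 41 of them. Mki67, the usual marker of dividing cells, measured 348, 289, 162, 253 and 272 CPM in LP and 39.7, 39.2, 37.3, 46.6 and 39.9 CPM in LP PIC, a difference of -2.71 ± 0.20 (SE, adjusted p = 6.92e-09). Pcna, the sliding clamp of DNA polymerase, measured 511, 598, 352, 389 and 368 CPM in LP and 129.9, 131, 142, 131 and 151 CPM in LP PIC, a difference of -1.69 ± 0.12 (SE, adjusted p = 6.53e-09). All 6 subunits of the replicative helicase fell, from Mcm3 (-1.30) to Mcm7 (-2.35), and so did the nucleotide synthesis genes Rrm2 (-3.58) and Tk1 (-3.49). Of mitotic kinases, Plk1 measured 47.1, 43, 22.7, 36.3 and 32.4 CPM in LP and 2.43, 3.41, 3.93, 2.93 and 2.34 CPM in LP PIC, a difference of -3.58 ± 0.25 (SE, adjusted p = 6.14e-09), and Aurkb and Cdk1 fell by 3.05 and 2.35. The regulators Foxm1 (-2.80 ± 0.19) and Mybl2 (-3.04), which drive mitotic genes, fell too. Pttg1, or securin, was the single mitosis gene that rose, by 0.65 ± 0.13.

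Upstream of these genes, some G1 regulators fell and others did not pass. Ccnd1, which codes for cyclin D1, the cyclin that growth factors induce, measured 493, 457, 249, 291 and 296 CPM in LP and 27, 20.2, 48.7, 24.7 and 27.6 CPM in LP PIC, a difference of -3.59 ± 0.28 (SE, adjusted p = 1.17e-08). Myc measured 41, 42.4, 38.3, 38.9 and 33.4 CPM in LP and 6.28, 8.02, 16.3, 3.11 and 12.7 CPM in LP PIC, a difference of -2.07 ± 0.33 (SE, adjusted p = 4.97e-05). Ccne2 (-3.30) and E2f7 (-3.59 ± 0.33) fell, whereas Ccne1 (-0.24), Cdk4 (-0.04) and the inhibitors Cdkn1a (0.31 ± 0.16, adjusted p = 0.124) and Cdkn1b (-0.12) did not pass; Cdkn1a passed at 0.0394 without LP PIC of mouse 5. The inhibitor Cdkn2c fell with the cyclins, by 2.47, and the antiproliferative Btg1 rose by 1.26 ± 0.18. Of 28 G1 genes 13 fell and 2 rose (4 without LP PIC of mouse 5). Of 20 p53 targets 7 rose and 2 fell, 1 of the latter without any of mice 1 to 4 or LP of mouse 2. Chromatin genes of dividing cells fell in 21 of 22 cases, among them the condensin subunits Ncapd2 (-2.70 ± 0.19) and Ncaph (-2.98 ± 0.21) and the methylation factor Uhrf1 (-2.93). The remaining one, Eed, rose by 0.36 ± 0.12, which did not pass without mouse 1 (adjusted p = 0.0512) or mouse 4 (0.129).

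Promoters of 3 mitosis genes are printed because they hold TTTGAA, the core of the element called CHR through which the DREAM complex and FOXM1 act on mitotic genes. Windows and source are as above, and capitals mark TTTGAA or its reverse complement TTCAAA.
Plk1 (chr7:122159185-122159484, plus strand): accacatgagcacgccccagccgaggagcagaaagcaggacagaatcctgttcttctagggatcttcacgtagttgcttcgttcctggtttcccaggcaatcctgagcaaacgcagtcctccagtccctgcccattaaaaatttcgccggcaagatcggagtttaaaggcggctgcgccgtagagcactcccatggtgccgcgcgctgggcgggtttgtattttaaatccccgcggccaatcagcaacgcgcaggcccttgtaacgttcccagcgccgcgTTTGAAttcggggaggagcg
Kif23 (chr9:61946750-61947049, minus strand): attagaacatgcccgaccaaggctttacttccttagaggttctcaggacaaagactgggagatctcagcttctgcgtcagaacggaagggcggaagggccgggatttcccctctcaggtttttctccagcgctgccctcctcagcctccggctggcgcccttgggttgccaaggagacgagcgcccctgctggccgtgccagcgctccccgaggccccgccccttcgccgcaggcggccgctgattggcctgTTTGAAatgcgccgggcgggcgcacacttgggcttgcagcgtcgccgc
Mki67 (chr7:135716330-135716629, minus strand): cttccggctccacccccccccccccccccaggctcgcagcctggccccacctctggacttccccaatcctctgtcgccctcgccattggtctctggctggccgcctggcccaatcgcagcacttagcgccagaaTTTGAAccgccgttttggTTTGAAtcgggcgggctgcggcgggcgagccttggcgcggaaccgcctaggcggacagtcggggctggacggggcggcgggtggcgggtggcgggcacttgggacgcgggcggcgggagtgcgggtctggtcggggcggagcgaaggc
The match begins 30 bases after the start in Plk1 and 2 bases after it in Kif23, and the 2 matches of Mki67 begin 116 and 98 bases before it.

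The share of promoter windows with such letters was counted over all genes, and no difference between shares was tested. Windows of 9702 tested genes were searched on both strands, 12331 windows in all, since some genes have several starts. The ISRE-type letters GAAA, any 2 bases, GAAA were found in 3.24% of all windows, in 86 of 718 windows of genes higher by at least 1 and in 3.85% of those of genes lower by at least 1. Of 113 windows of 90 called higher genes in the interferon lists, 42 held it (37.2%). TTTGAA was found in 1485 of all 12331 windows, in 14.2% for genes higher by at least 1, in 21.5% for those higher by at least 4, in 19.5% of interferon list windows, in 19.4% for genes lower by at least 1 and in 26 of 35 windows (74.3%) of the mitosis genes that fell. CCAAT, or ATTGG on the other strand, stood in 37.8% of all windows and also in 26 of 35 mitosis windows, though not in all of the same ones. TTTCCCGC, an E2F-type site, was in 2.04% of all windows, 0.418% for genes higher and 4.09% for genes lower by at least 1, and in 0 of 35 mitosis windows. The NF-kB-type letters GGGAA, any 3 bases, CC stood, in the same order, in 6.87%, 9.05% and 7.21%, and the antioxidant-type letters TGAC, any 3 bases, GC in 14.5%, 12.5% and 14.4%. The GAS-type letters TTC, any 3 bases, GAA, bound by STAT pairs, stood in 6.74%, 9.61% and 5.53%, and in 18.6% of interferon list windows. Some of these letters can overlap in 1 window, and lists and windows were looked at after results of these data were known.

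**Figure D4:**
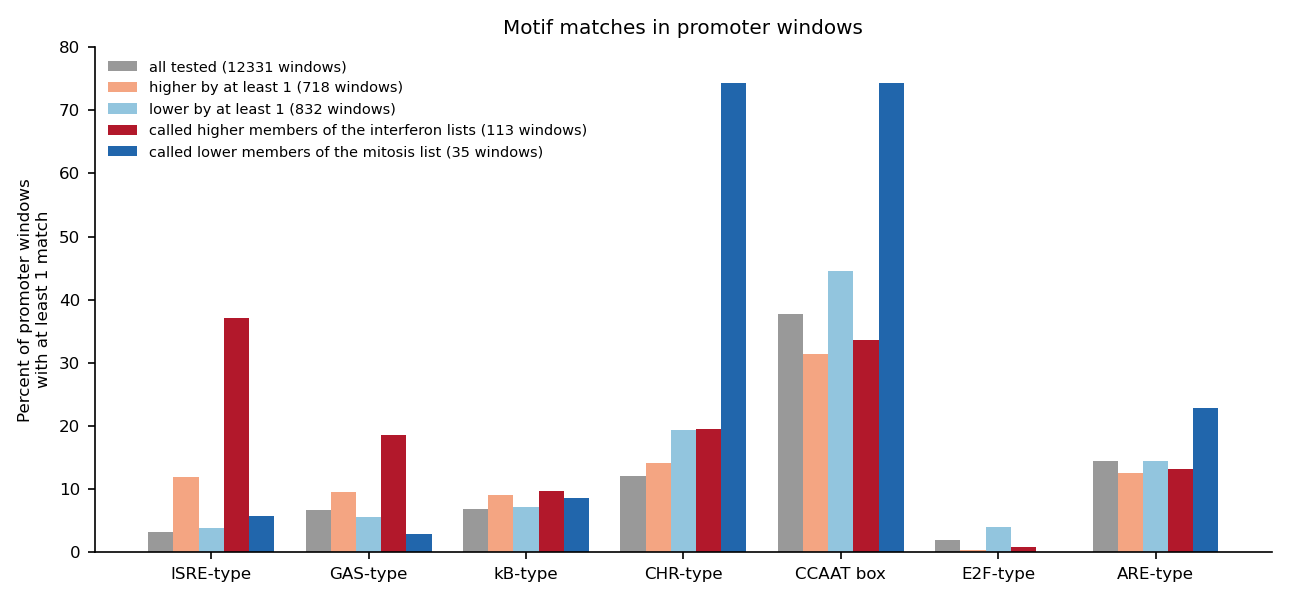
Bars give the percent of 300-base promoter windows with at least 1 match to each of 7 motifs, for all tested genes, for genes higher or lower by at least 1 on the log2 scale, and for 2 groups of called list members. The ISRE-type share is highest in the interferon lists (37.2%) and the CHR-type and CCAAT shares in mitosis genes (74.3% each).

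Of 27 tested genes of LXR targets and lipid handling 4 rose and 8 fell (5 without mouse 1, 4 without mouse 4), and of 18 scavenger receptor and efferocytosis genes 2 rose (5 with mouse as a block) and 7 fell, against 22.7% of all tested genes in each direction. Lpl, the lipoprotein lipase, measured 4739, 4942, 1487, 2264 and 1897 CPM in LP and 521, 551, 421, 219 and 278 CPM in LP PIC, a difference of -2.95 ± 0.34 (SE, adjusted p = 1.55e-06); mice 1 and 2 started from higher levels than mice 3 to 5. Lrp1, a large endocytic receptor, measured 2819, 3246, 2493, 2505 and 2942 CPM in LP and 929, 943, 1213, 595 and 1342 CPM in LP PIC, a difference of -1.48 ± 0.17 (SE, adjusted p = 9.05e-07). The fatty acid receptor Cd36 (-1.64), the HDL receptor Scarb1 (-0.90 ± 0.14) and Pparg (-1.08 ± 0.14), a regulator of lipid genes, fell, while Olr1 (4.05 ± 0.60) and Msr1 (0.87) rose. The sterol sensor Nr1h3, or LXR alpha, rose by 1.74 ± 0.26 with its target Abca1 (1.60), but Abcg1 (0.08), Mylip (0.01) and Srebf1 (-0.07), also LXR targets, did not pass. Of 24 cholesterol synthesis genes 1, Mvd (1.14 ± 0.23), rose and 6 fell; with mouse as a block 2 rose and 12 fell, and the number that fell was 2 without mouse 1, 2 or 4, 12 without mouse 5 and 13 without LP PIC of mouse 5.

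Of 36 nuclear genes of oxidative phosphorylation 22 rose and 2 fell, but with a median of 0.22 and none beyond 0.57 (Ndufs3, 0.57 ± 0.10), and 13 rose without mouse 4. Of 28 glycolysis and hypoxia genes 3 rose and 9 fell (5 without mouse 1, mouse 4 or LP of mouse 2). Hif1a rose by 1.17 ± 0.10 while Slc2a3 (-1.44 ± 0.15), Pdk1 (-1.17 ± 0.14) and Pgk1 (-0.75) fell, and Slc2a1 (0.10), Gapdh (0.13) and Ldha (-0.21) did not pass. Cytoplasmic ribosomal protein genes were mostly level, with 34 of 42 not called and a median of -0.07. In the unfolded protein and integrated stress response list 4 genes rose and 11 fell. With 1 mouse, LP of mouse 2 or LP PIC of mouse 5 left out, 8 to 11 fell. In the list of NRF2, glutathione and heme genes 5 rose and 6 fell (3 to 8 with the same left out). Within the stress lists, Ddit3, or CHOP, rose by 1.02 ± 0.13 while Psat1, of serine synthesis, fell by 2.18. The NRF2 targets Hmox1 (0.35) and Nqo1 (0.14) did not pass.

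Matrix and adhesion genes changed in both directions. The elastase Mmp12 measured 3638, 3128, 2654, 2294 and 1389 CPM in LP and 509, 606, 1388, 139 and 406 CPM in LP PIC, a difference of -2.10 ± 0.51 (SE, adjusted p = 0.00252); mouse 3 was the highest with LP PIC, though not in LP. The call was lost in mice 1 and 2 alone (adjusted p = 0.0725) and in mice 3 to 5 alone (0.0709). Mmp14, a protease of the cell surface, measured 27.1, 18.3, 41.1, 32 and 36.3 CPM in LP and 516, 467, 251, 541 and 333 CPM in LP PIC, a difference of 3.76 ± 0.27 (SE, adjusted p = 6.92e-09). The integrin Itga6 fell by 2.72 and Itgax, or CD11c, by 1.92, while the ligands Vcam1 (6.31 ± 0.66) and Icam1 (2.36 ± 0.23) rose. Among lysosomal genes, Ctsz measured 1663, 1598, 2474, 1968 and 1889 CPM in LP and 4228, 3895, 4193, 5177 and 4419.6 CPM in LP PIC, a difference of 1.19 ± 0.12 (SE, adjusted p = 2.02e-07), and Neu1 (0.76 ± 0.10) and Gaa (0.89 ± 0.13) rose. Ctsd and Ctsb, the most abundant of the list, had the largest losses of CPM within it, with log2 differences of -0.48 ± 0.18 and -0.28 ± 0.10 (adjusted p = 0.0341 and 0.0356). Both calls were lost without any of mice 1 to 4 (adjusted p of 0.0583 to 0.162). Spp1, or osteopontin, fell by 0.74, with an adjusted p of 0.0904 without mouse 1 and 0.158 in mice 3 to 5 alone, and Actb by 0.71.

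Of 25 macrophage surface markers 10 rose and 3 fell (5 fell with mouse as a block). Csf1r, the receptor for CSF-1, measured 1898, 1732, 2141, 1939 and 1696 CPM in LP and 2179, 2058, 1887, 1652 and 1869 CPM in LP PIC, a difference of 0.04 ± 0.11 (adjusted p = 0.808). Adgre1 (F4/80, 0.14 ± 0.21), Lyz2 (-0.00), Cd68 (0.34) and the lineage factor Spi1 (0.03) did not pass either. Csf2rb (1.23 ± 0.16), Siglec1 (1.39), Ly6e (1.50) and Ly6i (5.80 ± 0.47) rose, and Cd81 (-1.36 ± 0.20) fell. Mrc1, the mannose receptor, measured 203, 178, 32.5, 57.6 and 32.6 CPM in LP and 74.4, 67, 21.6, 30.9 and 25.7 CPM in LP PIC and did not pass (-1.19 ± 0.55, adjusted p = 0.086), but did with mouse as a block (0.00921). Of 25 lineage transcription factors 4 rose and 5 fell, against 22.7% of all tested genes in each direction. With mouse as a block 7 rose and 9 fell, and without LP PIC of mouse 5, 8 fell. Clec10a, a lectin, fell by 2.01 (adjusted p = 0.0327) and did not pass without any of mice 1 to 4, LP of mouse 2 or LP PIC of mouse 5 (0.0545 to 0.0785).

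Set directly against LP 3M, the other single formulation on the same carrier, the 5 LP PIC libraries differed in 5712 genes (47.1%), 22.7% higher and 24.4% lower. All 6 Ifit genes, all 9 tested genes of the oligoadenylate synthetase list and all 9 guanylate-binding proteins were higher in LP PIC than in LP 3M, and 33 of 35 replication and 40 of 41 mitosis genes were lower. Ifit1 was 2.67 higher on the log2 scale (adjusted p = 0.000946) and Cxcl10 5.50 (adjusted p = 2.04e-07), while Mki67 differed by -1.94 (adjusted p = 4.03e-07). Cytokine genes went both ways: 10 of 22 cytokines were lower in LP PIC than in LP 3M and 6 higher, with Tnf at -1.92 (adjusted p = 4e-07) and Il1b at -4.60 (adjusted p = 0.000301). Adgre1 was 4142 CPM on average in LP 3M, and LP PIC lay below it, with a log2 difference of -2.49 (adjusted p = 1.82e-07). Tnfaip3 (-0.04, adjusted p = 0.814), Nr1h3 (0.00, adjusted p = 0.989) and Slc31a2 (0.00, adjusted p = 0.981) did not pass between LP PIC and LP 3M.

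The mice differed in how much their interferon genes rose, and LP levels were highest in mouse 3, followed by mouse 4. Over the 49 antiviral effector genes that were called higher, the median within-mouse log2 difference (with 0.5 CPM added) was 2.18, 2.33, 0.843, 1.96 and 1.97 in mice 1 to 5. In 46 of the 49 genes (93.9%) mouse 3 had the smallest difference, as it did in 34.5% of all tested genes. In LP, 43 of the 49 genes were highest in mouse 3. Its median deviation from the mean of the mice was 0.76 and that of mouse 4 was 0.45. Mice 1, 2 and 5 were at -0.20, -0.53 and -0.47. The LP PIC library of mouse 3 was lowest in 6 genes and highest in 1. With LP PIC, 45 genes were highest in mouse 4 and 41 lowest in mouse 5. The LP 3M libraries, which entered the fit but not this contrast, had 46 genes highest in mouse 3. Their median deviations were 0.71 in mouse 3 and 0.39 in mouse 4, against -0.19, -0.44 and -0.44 in mice 1, 2 and 5. Replication and mitosis genes mirrored this for mouse 3: of the 75 that fell, 71 were lowest in mouse 3 in LP. Their median deviation in LP was -0.55 in mouse 3 and -0.05 in mouse 4. The median differences were -2.64, -2.43, -1.53, -2.22 and -2.24 in mice 1 to 5. Beyond their IDs, nothing in the labels sets mice 3 and 4 apart, and what their LP cultures shared with LP PIC cultures was not tested.

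**Figure D5:**
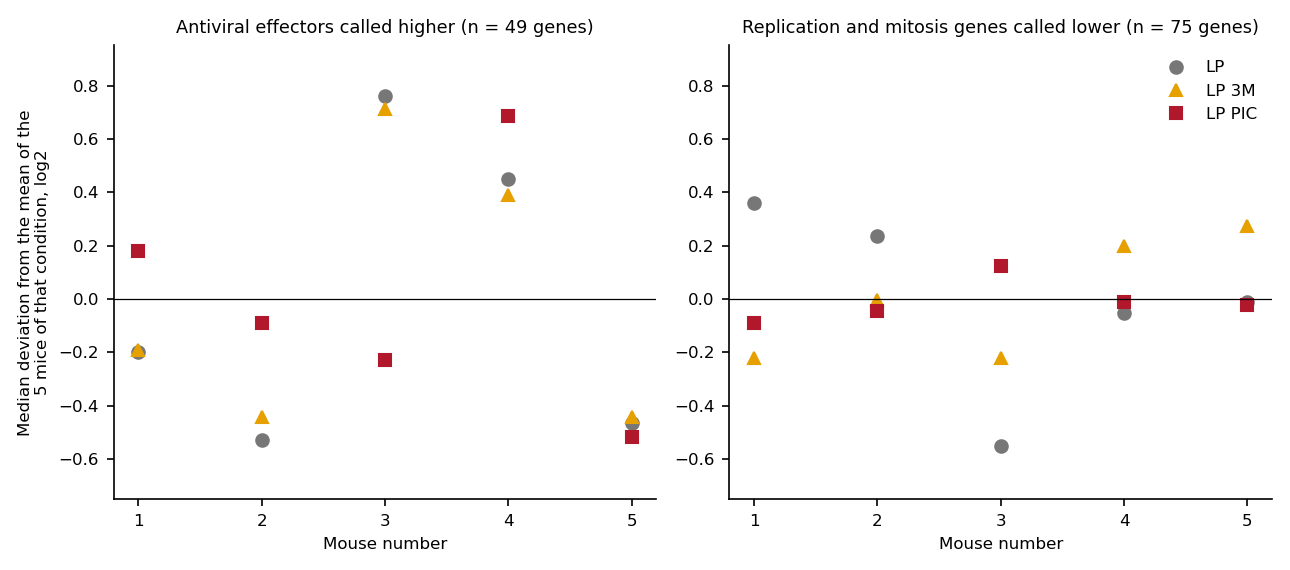
Points give, for each mouse and condition, the median deviation of a gene group from the mean of the 5 mice in that condition, on the log2 scale, for 49 antiviral effectors (left) and 75 replication and mitosis genes (right). Mouse 3 is at 0.76 in LP and -0.23 in LP PIC for antiviral effectors, and at -0.55 in LP for dividing-cell genes. Mouse 4 is at 0.45 in LP and 0.69 in LP PIC for antiviral effectors, and at -0.05 in LP for dividing-cell genes.

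Some of the large rises were of neighbouring genes. Runs of 3 or more neighbouring tested genes that all rose by at least 1 numbered 39 and held 146 of 750 such genes, against 7 runs with 22 of 830 genes for falls. The longest held 6 genes, among them the Ifit cluster on chromosome 19 (34550550 to 34662981) and a block of Ms4a genes on the same chromosome (11404717 to 11604804). Class II genes H2-Ab1, H2-Aa and H2-Eb1, the loading genes Psmb9, Tap1, Psmb8 and Tap2, the Oas1 genes, Parp14 with Dtx3l and Parp9, and Rsad2 with Cmpk2 formed others. Coordinates are those of RefSeq genes on GRCm38. Reads of overlapping genes cannot be told apart without the strand setting, and the difference between the counts of runs was not tested.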

How the data were processed

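RNA of 10 cultures (5 mice, LP and LP PIC) was analysed within all 20 libraries of the series. Each deposited table lists unnormalised read counts by gene symbol, whole numbers throughout. According to the submitters' processing notes, HTSeq 0.13.5 and STAR 2.7.11b were among the tools, with FastQC 0.11.1, DESeq2 1.44.0 and build GRCm38, while the labels' protocols name a stranded kit with poly(A) enrichment. For annotation and strand setting, the answer is not given in the sources used here. Entries that name no gene (6.68 to 8.58% without a feature, 1.14 to 1.90% ambiguous) stayed out of all sums.

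Genes were kept by filterByExpr (minimum count 10, minimum total 15), which left 12132 with 99.97% of counts. Libraries were scaled by TMM (factors 0.945 to 1.07), and edgeR 4.0.16 (R 4.3.3) fitted 1 mean per condition over 20 libraries with a robust quasi-likelihood F-test, two-sided, Benjamini-Hochberg adjusted over all tested genes. All adjusted p-values in the text are from this test unless a limma 3.58.1 or DESeq2 1.42.0 result is named. The SE is the one implied by the F-test, and n is 5 per condition. The common biological coefficient of variation was 0.194. CPM use the scaled library sizes, except in the sums of cell type markers and the floors, which use plain library totals. Intervals and floors (3 counts, 0.126 to 0.308 CPM) cover counting error only. On simulated counts with 200 changed genes, 84% of changes of 1 and 89% of changes of 2 on the log2 scale were recovered. Of the calls, 4.42% were false. The simulation held no mouse effect and far fewer changed genes than were called here, so these rates need not hold for the data.

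Same-numbered libraries come from the same mouse by the labels' mouse ID, and their deviations correlated at 0.137 to 0.529. Between different mice the correlations ran from -0.358 to 0.288. LP of mouse 4 correlated more with LP PIC of mouse 3 (0.277) than with LP PIC of mouse 4 (0.137). No libraries were duplicates (chi-squared per degree of freedom at least 7.43). Members and gene lists were chosen with earlier results of these data known. Named genes are the 10 called genes with the largest rise and fall (at least 5 CPM in the higher condition, same direction in 5 of 5 mice), the 8 with the largest change in CPM and the smallest p in each direction, the 3 smallest p of each list with its strongest opposite call, and a panel of 50 genes; other list members are named as examples chosen after their values were seen. Python 3.11.15 and pandas 2.3.3 served for tables. Some genes are not reported here. Alternatives comprised other scalings, filters, tools and mouse as a block, each mouse left out, and, added after seeing the data, LP PIC of mouse 5 left out and mice 1 and 2 or 3 to 5 alone.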

Additional observations from a re-analysis of the deposited data

Results flagged for a closer look

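In depth, 2 libraries stood apart from the other 4 of their condition: LP of mouse 2 had 9.74 M (mega) gene counts against 22.4 to 23.8 M, and LP PIC of mouse 5 had 17.4 M against 22.7 to 23.6 M.

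Of 243 named genes, 14 had 1 mouse whose within-mouse log2 difference lay far from the other 4. A chance rate of about 1 such gene in 20 holds for independent genes only. These genes were measured in the same 5 mice, so their number cannot be set against it. In 11 of the 14 genes mouse 3 was lowest. Its differences were 2.01 for Isg15 (4.12 to 4.27 in the others), 1.04 for Usp18, 0.661 for Stat2, 0.773 for Dhx58, 0.959 for Trex1, 0.582 for Oas1g, 0.836 for Slfn2, 0.510 for Parp10, 0.856 for Ikbke, 2.42 for H2-Q5 and 0.761 for Ctsz. Mouse 5 was lowest for Hp, with 3.32 against 3.99 to 4.16. Mouse 4 was highest for Il12b, with 2.66 against 1.02 to 1.49, and for Cdkn1a, with 1.01 against -0.0136 to 0.247.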

How the results depend on the processing

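Over 18 alternatives, 14 of them planned, the count of called genes ran from 3970 to 6203, and no gene called in both the main and an alternative analysis changed direction. Leaving out 1 mouse at a time gave 4195 to 5277 called genes, 2132 to 2596 higher, 2063 to 2681 lower and 1389 to 1670 with a change of at least 1. With mouse as a replicate block 6203 genes were called, 3036 higher and 3167 lower, and 1657 with a change of at least 1. The block changed the calls of Arg1, Ccl2, Cxcl9, Eif2ak2, Il6, Mrc1 and Ticam1, all from not called to called, and of no other named gene. It also moved the counts of the lists named with it and, from 2 to 5 higher scavenger receptors, 1 to 2 lower C-type lectins, 3 to 6 lower MAP kinase phosphatases, 5 to 8 higher NRF2 genes, 3 to 5 lower surface markers, 4 to 7 lower alternative activation genes and 1 to 2 higher ribosomal genes. DESeq2 called 5788 and limma-voom 5575. A filter of 5 CPM, which tests fewer genes, left 1062 changes of at least 1. Mice 1 and 2 alone gave 4965 calls and mice 3 to 5 alone 3970, a split chosen after seeing the data. Library totals without scaling called 2373 higher and 3079 lower.

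Of 230 called named genes, 209 kept direction and side of the threshold under every alternative that tested them. Directions reversed only in genes that were not called. Csf1r was at -0.00285 with plain library totals, -0.00777 and -0.0163 without mouse 1 and mouse 2 (up to 0.106 without other mice), and -0.0943 in mice 3 to 5. Mavs was at 0.0693 in mice 1 and 2, and Il10 at 0.0798 in mice 3 to 5. Depth limits genes near the floor, several cytokine and interferon ligand genes among them: 3 counts in the shallowest library are worth 0.308 CPM. The p-values of the main test rest on the spread between libraries of 5 mice of unknown relation, without pairing.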

Other observations

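Of the 1584 genes with a called change of at least 1, 1211 stand in none of the lists, and the genes below were chosen after their values were seen. Saa3, serum amyloid A, rose from 17.5 to 1417 CPM on average (log2 difference 6.33 ± 0.92, adjusted p = 2.22e-05), Orm1, orosomucoid, from 0.829 to 37.2 CPM (5.40 ± 0.48), and Slpi, a leukocyte protease inhibitor, from 2.11 to 61.7 CPM (4.79 ± 0.43). Il18bp, the decoy that neutralises interleukin 18, rose by 3.30 ± 0.40, while Il18 itself rose by 0.74 ± 0.22. All 6 tested Ms4a genes, a family of membrane proteins, rose, led by Ms4a4c (1.82 to 158 CPM, 6.41 ± 0.81). Cst7, a cystatin of lysosomes, rose by 5.02 ± 0.52, the uptake receptor Ly75, or DEC-205, by 4.97 ± 0.49, the growth factor receptor Met by 3.39 ± 0.43 and Acsl1, which activates fatty acids, by 3.23 ± 0.22.

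Among falls outside the lists, the microtubule regulator Stmn1 (88.9 to 8.92 CPM, -3.32 ± 0.23), Hmga2 (221 to 45 CPM, -2.30 ± 0.30), Angptl2 (-2.06 ± 0.26), Lsp1 (-2.03 ± 0.62) and Emp1 (-1.99 ± 0.33) fell. All 8 tested Haus genes, subunits of the augmin complex of the spindle, fell, as did 7 of 8 Cbx genes of chromatin. Of 10 Serpinb genes 6 fell and 2 were called higher, among them Serpinb2 (not by limma-voom, adjusted p = 0.374). Of 5 Nlrp genes 4 fell while Nlrp3 rose by 0.79 ± 0.11.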
